A study of Mus musculus with 16 samples.

Results

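The response to bacterial lipopolysaccharide (LPS) was followed in adherent peritoneal macrophages of mice labelled fld, which carry a mutation of Lpin1. It was taken from 8 of the 16 arrays of the series, chosen by their sample titles: 4 arrays of cells given LPS at 100 ng/ml over 5 h and 4 arrays of cells without it. The mice were male BALB/cByJ-Lpin1fld/J. The other 8 arrays, of heterozygous controls of the same strain with and without LPS, served for comparison, and they also entered the estimate of spread and the filter on dim probes. Per the labels, cells that stuck to plastic after a peritoneal wash were treated in serum-free RPMI, so the cultures were enriched by adhesion, not sorted, and the mutation was present in every cell of the mouse. RNA was hybridised in 1 colour to Agilent arrays. The design text names 4 mice of each genotype but does not tie a replicate number to a mouse, and where arrays of a group share a mouse the p-values measure technical spread only.

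LPS is the glycolipid of the outer membrane of Gram-negative bacteria. CD14 and MD-2 hand it to the receptor TLR4, which signals through the adaptor MyD88 to NF-kB and the MAP kinases, and through the adaptors TRAM and TRIF to IRF3 and interferon beta. NF-kB and AP-1 then drive cytokines, chemokines and their own inhibitors, while interferon acts back on the cell through its own receptor. Lipin-1, the product of Lpin1, removes the phosphate of phosphatidate to give diacylglycerol, a step in the synthesis of triglycerides and phospholipids, and it also acts in the nucleus as a partner of transcription factors. The fatty liver dystrophy (fld) mutation is a classical loss of lipin-1 in the mouse.

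Every level below is a log2 processed intensity relative to the 75th percentile of its array, and a change is the mean with LPS minus the mean without it, n = 4 arrays each, with the standard error (SE) and adjusted p of limma. Values in replicate order run from array 1 to array 4. On the 4 LPS arrays that percentile was 386, 251, 411 and 189, and it was 413 to 581 on the untreated ones. LPS replicates 2 and 4 had the lowest percentiles. They lay at least 1 log2 unit above both others in 185 features and as far below them in 62. Across features LPS replicate 4 correlated with LPS replicates 1 and 3 at 0.966 and 0.961, and the closest pair, replicates 1 and 3, at 0.992. LPS replicate 2 correlated with replicates 1 and 3 at 0.987 each and with replicate 4 at 0.979, so over all features replicate 4 was the array farthest from the rest. The 4 arrays of a group shared 1 slide that held no other group, so slide and treatment cannot be told apart.

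Lpin1 (gene 14245) was measured by 4 probes, and replicate 4 differed from the other arrays labelled fld in both groups. The brightest probe read -1.84, -1.96, -2.15 and -0.63 without LPS and -1.59, -1.40, -1.69 and -0.33 with it, so replicate 4 was the highest array of each group. The control means of this probe were -1.52 without LPS and -1.53 with it, below replicate 4 and nearer to the other arrays labelled fld. The other 3 probes were well above background on replicate 4, at -1.36, -1.94 and -1.55 untreated and -2.61, -2.95 and -3.54 with LPS, and lay between -7.35 and -4.58 on the remaining arrays, where only 1 of them, on LPS replicate 3, was well above background. Whether these probes lie in the part changed by the mutation was not given in the sources used here. The cells are therefore called labelled fld, and counts over all features are given with and without replicate 4 of both groups, as are the counts of several lists. LPS replicate 4 is also 1 of the 2 LPS arrays with the lowest percentile.

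To show what the letters of 3 motifs look like before genes that changed, 6 promoters are printed, from 250 bases before to 50 bases after the start, 5′ to 3′ on the strand of the gene, from RefSeq on GRCm38.p6. They were chosen after their matches were seen. Capitals mark the motif: NF-kB as GGGNNNTTCC in Cxcl1 (chr5:90890995-90891294, plus strand) and Tnfaip3 (chr10:19015361-19015660, minus strand), AP-1 as TGANTCA in Mmp3 (chr9:7445572-7445871, plus strand) and F3 (chr3:121723287-121723586, plus strand), and the interferon response element (ISRE) as GAAANNGAAA in Ifit3 (chr19:34583279-34583578, plus strand) and Gbp3 (chr3:142559794-142560093, plus strand). Cxcl1 encodes a neutrophil chemokine, Tnfaip3 the NF-kB inhibitor A20, Mmp3 a matrix-degrading protease, F3 tissue factor, and Ifit3 and Gbp3 antiviral and antibacterial proteins made in answer to interferon.
Cxcl1: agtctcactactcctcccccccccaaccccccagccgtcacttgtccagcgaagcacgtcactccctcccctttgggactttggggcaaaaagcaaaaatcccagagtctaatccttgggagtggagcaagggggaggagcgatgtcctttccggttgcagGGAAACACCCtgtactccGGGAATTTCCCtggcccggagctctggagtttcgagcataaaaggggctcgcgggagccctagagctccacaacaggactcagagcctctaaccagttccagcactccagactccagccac
Tnfaip3: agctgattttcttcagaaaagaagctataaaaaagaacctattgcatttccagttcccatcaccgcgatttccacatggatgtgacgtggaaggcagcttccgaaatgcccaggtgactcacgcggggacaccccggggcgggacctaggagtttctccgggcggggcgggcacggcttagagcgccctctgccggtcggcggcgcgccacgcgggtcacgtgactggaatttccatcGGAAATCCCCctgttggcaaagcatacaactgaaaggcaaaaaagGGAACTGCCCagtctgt
Mmp3: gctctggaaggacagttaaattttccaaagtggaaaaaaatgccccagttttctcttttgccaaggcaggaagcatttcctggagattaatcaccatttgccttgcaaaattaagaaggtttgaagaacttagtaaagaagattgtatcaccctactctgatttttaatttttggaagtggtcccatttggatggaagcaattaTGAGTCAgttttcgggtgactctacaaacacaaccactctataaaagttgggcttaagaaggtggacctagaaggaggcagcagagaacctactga
F3: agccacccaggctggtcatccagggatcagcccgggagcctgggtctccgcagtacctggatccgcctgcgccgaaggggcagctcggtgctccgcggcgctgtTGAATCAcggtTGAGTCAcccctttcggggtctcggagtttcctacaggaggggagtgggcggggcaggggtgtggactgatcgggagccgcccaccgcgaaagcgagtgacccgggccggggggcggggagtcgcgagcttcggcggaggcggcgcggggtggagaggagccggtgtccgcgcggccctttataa
Ifit3: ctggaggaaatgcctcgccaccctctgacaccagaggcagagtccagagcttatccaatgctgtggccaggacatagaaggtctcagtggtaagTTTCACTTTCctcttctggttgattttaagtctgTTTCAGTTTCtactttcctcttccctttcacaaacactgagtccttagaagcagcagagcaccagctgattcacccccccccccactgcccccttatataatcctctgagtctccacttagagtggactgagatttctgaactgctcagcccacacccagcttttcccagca
Gbp3: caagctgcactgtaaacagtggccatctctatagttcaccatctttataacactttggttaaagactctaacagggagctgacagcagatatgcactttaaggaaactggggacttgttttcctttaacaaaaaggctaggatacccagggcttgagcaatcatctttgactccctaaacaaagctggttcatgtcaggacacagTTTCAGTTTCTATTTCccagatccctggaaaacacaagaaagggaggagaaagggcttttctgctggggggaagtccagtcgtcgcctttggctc

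The first 4 of these genes rose with LPS and the last 2 fell. On either strand, the NF-kB letters were in 12% of the 133 promoters found for genes named as higher. They were in 9.85% of the named lower ones and in 5.95% of all tested genes with a promoter. The naming rule, given under the processing below, draws on the chosen lists as well as on size of change. These shares therefore also reflect how the lists were chosen. The AP-1 letters were in 18% of the promoters of named higher genes (24 of 133), in 12.1% of the lower ones and in 5.65% of all tested genes. Among called genes that rose by at least 3 log2 units the share was 21.4% (15 of 70), and among those that fell by as much 33.3% (7 of 21). In only the 200 bases before the start these shares were 15.7% (11 of 70) and 4.76% (1 of 21), against 3.96% of tested genes. For NF-kB the genes that rose by at least 3 log2 units were near the share of all tested genes, at 5.71% (4 of 70), and those that fell by as much were at 19.1% (4 of 21). ISRE letters stood in 19 of 27 promoters of the interferon-stimulated and GTPase lists below, 70.4%, against 3.13% of tested genes. The NF-kB and ISRE patterns can overlap in part with each other, a match is a description of these letters in this window, and no test was run on the shares.

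LPS changed much of the transcriptome of macrophages labelled fld. Of 17465 features tested by limma over all 16 arrays, 7009 passed at an adjusted p under 0.05, which is 40.1%: 3831 were higher with LPS (21.9%) and 3178 lower (18.2%). In a fit of the 8 fld arrays alone 5645 passed. The 2 sets of 4 arrays did not overlap in 6495 features, 37.2%. Most called changes were small, with a median of 0.72 log2 units, but 1023 features rose and 886 fell by at least 1 unit, 250 and 144 by at least 2, and 100 and 35 by at least 3. The largest changes were rises: 21 called features rose by at least 5 log2 units, and none fell that far. Without replicate 4 of both groups 5437 features passed (31.1%), 2866 higher (16.4%) and 2571 lower (14.7%). The split into higher and lower rests on the scaling, since most genes moved little. It was 54.7% higher as reported, 29.6% when each array was scaled on its median, 67.3% with another background correction and 65.2% with no filter on dim probes. Scaling on the array median moved the median change of all features from 0.06 to -0.18, so small changes of long lists are read against that shift below.

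**Figure D1:**
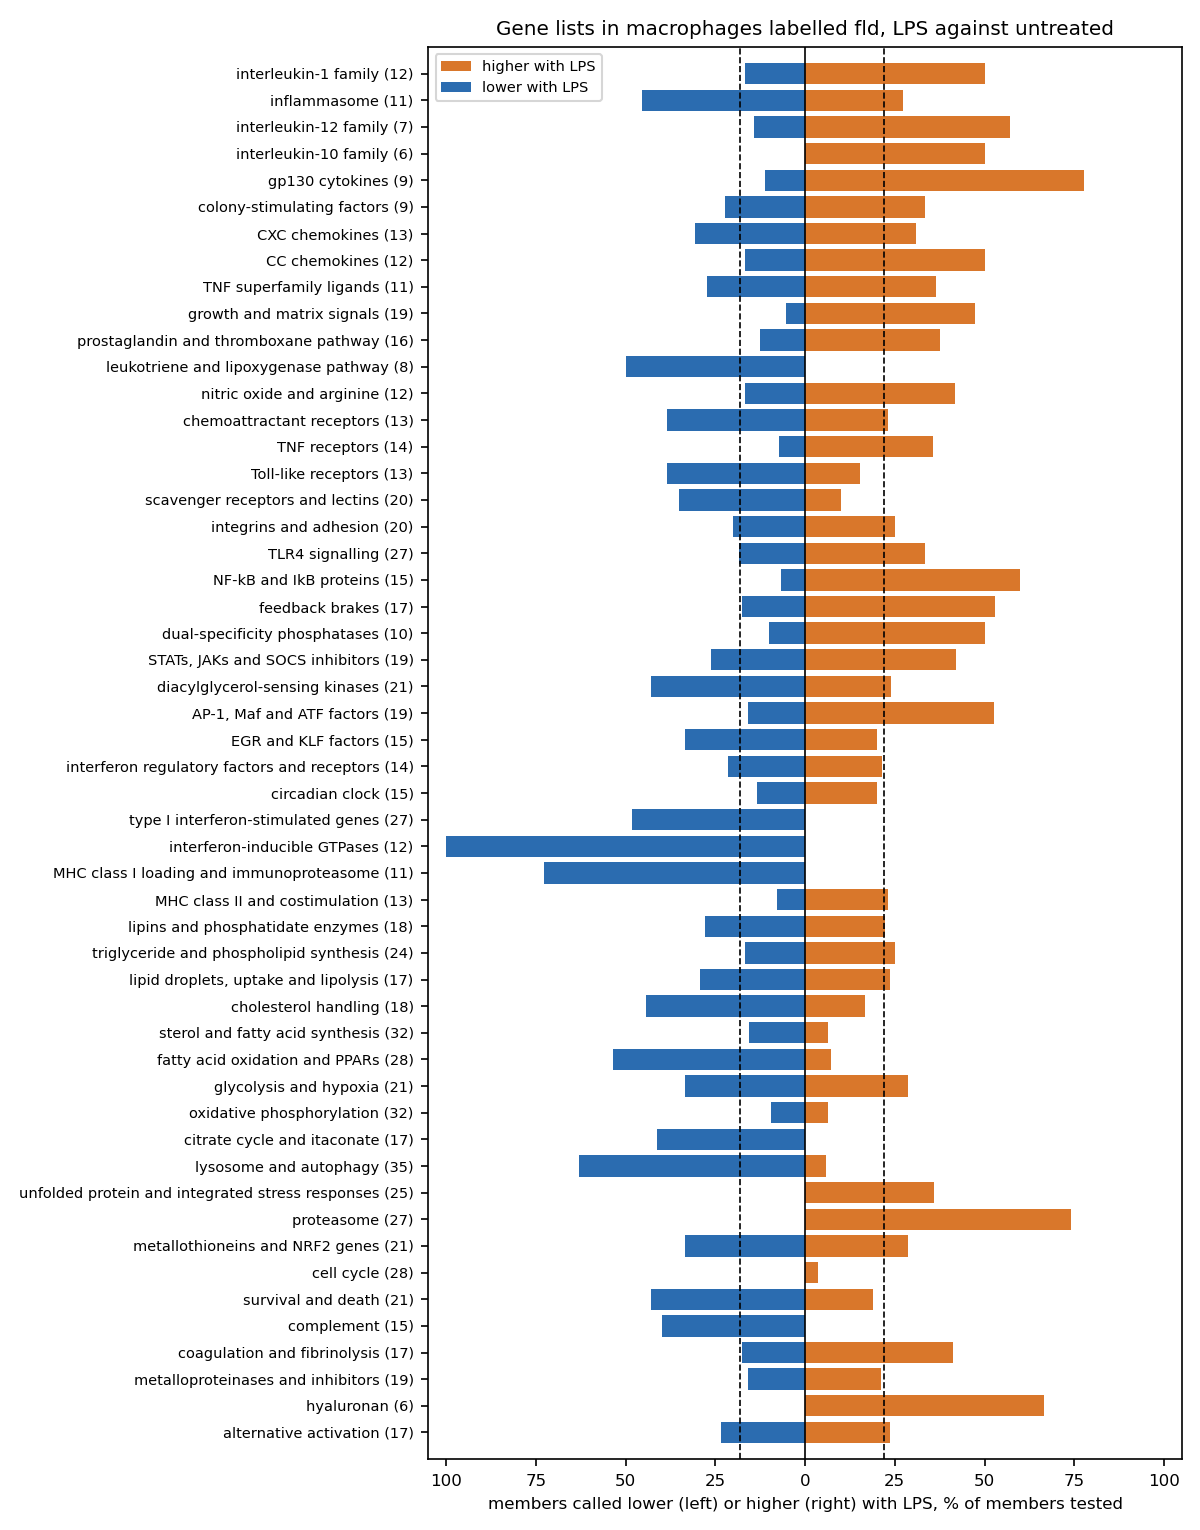
Percentage of the tested members of 52 gene lists that were called higher (right, orange) or lower (left, blue) with LPS in macrophages labelled fld by limma at an adjusted p under 0.05; numbers beside the names are members tested, and dashed lines mark the percentages over all 17465 features, 21.9% higher and 18.2% lower. Genes of gp130 cytokines, proteasome subunits, hyaluronan and NF-kB proteins reach far to the right, and interferon-inducible GTPases, immunoproteasome and lysosome genes far to the left; scaled on the array median, called proteasome genes drop from 20 to 3 of 27 with none lower.

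The 15 highest called rises included genes of growth factors, stefins, a chemokine, a receptor, a matrix protease and a gap junction protein. Csf2 (gene 12981), the gene of GM-CSF, which sustains macrophages and granulocytes, read -2.56, -3.21, -1.27 and -2.97 without LPS and 5.37, 5.76, 4.84 and 6.52 with LPS. Csf3 (gene 12985), the gene of the neutrophil growth factor G-CSF, read -3.09, -2.53, -0.01 and -2.57 untreated and 6.10, 5.70, 5.66 and 6.47 with LPS. In both genes the lowest LPS array lay far above the highest untreated array. The rise was 8.13 log2 units for Csf2 (SE 0.60, adjusted p = 2.6e-07), and for Csf3 it was 8.03 (SE 0.50, adjusted p = 6.6e-08). Untreated replicate 3 was the highest untreated array of both.

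Prok2 (gene 50501), which encodes the secreted peptide prokineticin 2, read -2.82, -0.95, -1.17 and -1.92 without and 5.46, 5.36, 5.25 and 5.29 with LPS, and rose by 7.06 (SE 0.57, adjusted p = 5.6e-07). Its LPS arrays lay within a narrow band. Mmp3 (gene 17392), the stromelysin protease, read -5.23, -4.40, -4.0 and -4.23 and then 2.55, 1.3, 1.81 and 1.36, a rise of 6.22 (SE 0.69, adjusted p = 1.0e-05). Has1 (gene 15116), a synthase of the matrix sugar hyaluronan, read -3.30, -2.84, -2.08 and -3.37 and then 2.90, 2.30, 2.28 and 3.61, a rise of 5.67 (SE 0.31, adjusted p = 2.0e-08). In each of these genes every LPS array lay above every untreated array by several log2 units. The gap junction protein gene Gja1 rose by 6.21, Inhbb, an activin subunit, by 5.84, and the kinase scaffold Akap12 by 5.52. Cxcl5, a neutrophil chemokine, rose by 5.01, Osmr, the receptor chain for oncostatin M, by 4.76, Ppp1r3g, a glycogen-targeting phosphatase subunit, by 4.75, and Fst, which binds and blocks activins, by 4.75. Inhbb had several probes, and their mean rose by 3.59. The stefin genes Cstdc6, Stfa2 and Stfa3, cysteine protease inhibitors of myeloid cells, rose by 5.6, 5.53 and 4.96. Stefin copies are near identical, so their probes may share signal and the genes are counted as uncertain one by one.

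Where none of the untreated arrays was well above background, a gene has only a lower bound. Il19 (gene 329244), a cytokine related to interleukin-10, read 2.71, 2.54, 1.44 and 3.27 with LPS, at least 192-fold above the untreated level. The bound was 32.7-fold for Tpbpa and 14.9-fold for Tpbpb, a pair of related placental genes whose probes may share signal, and 29.5-fold for another stefin, Stfa2l1. It was 12.9-fold for Armcx4 and 10-fold for Sptssb, a subunit of the enzyme that starts sphingolipid synthesis. Of these 6 genes, 5 were well above background on 4 of 4 LPS arrays, and Armcx4 on 3 of 4. Background correction sets the fitted size of such dim genes: with normexp Il19 rose by 5.41 log2 units instead of 9.32, still past the test.

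**Figure D2:**
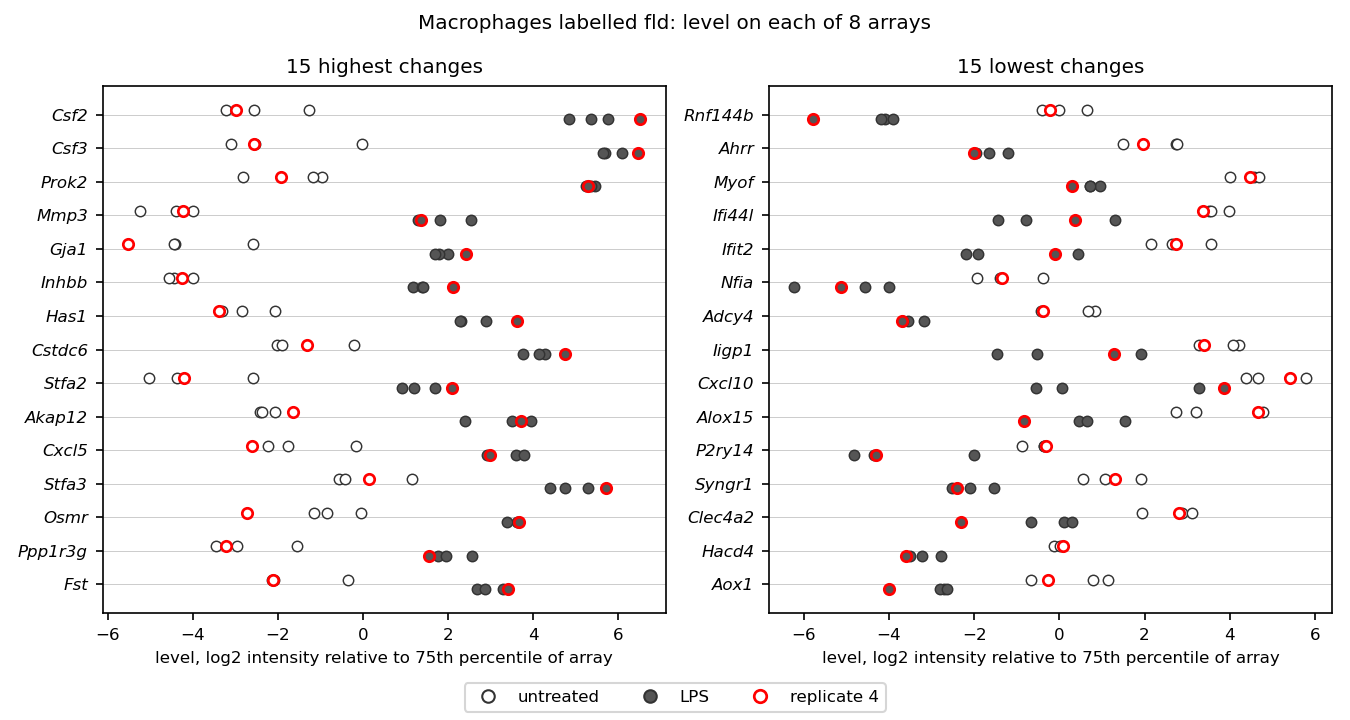
Level on each of the 8 arrays of macrophages labelled fld (log2 intensity relative to the 75th percentile of the array) for the 15 highest and the 15 lowest called changes; open points are untreated arrays, filled points LPS arrays, and red rings mark replicate 4. The untreated and LPS points of each gene are apart, by up to 8.13 log2 units between means in Csf2, and the LPS points of the interferon genes Ifi44l, Ifit2, Iigp1 and Cxcl10 fall into a lower pair and a higher pair.

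The lowest called changes were smaller than the highest. Rnf144b (gene 218215), a ubiquitin ligase, read 0.00, 0.64, -0.41 and -0.21 without LPS and -4.10, -3.91, -4.19 and -5.77 with it, and fell by 4.50 (SE 0.36, adjusted p = 5.3e-07). Ahrr (gene 11624), the repressor of the aryl hydrocarbon receptor, read 2.74, 2.75, 1.5 and 1.95 and then -1.65, -1.21, -1.97 and -2.0, a fall of 3.94 (SE 0.39, adjusted p = 3.8e-06). Alox15 (gene 11687), a lipoxygenase of large peritoneal macrophages, read 3.22, 4.79, 2.73 and 4.67 and then 1.54, 0.47, 0.64 and -0.83, and fell by 3.40 (SE 0.53, adjusted p = 2.2e-04). All LPS arrays lay below all untreated ones in these 3 genes, with LPS replicate 4 the lowest for Alox15.

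Myof, a membrane repair protein, fell by 3.77, the transcription factor gene Nfia by 3.71, the adenylate cyclase Adcy4 by 3.69, and P2ry14, a receptor for UDP-glucose, by 3.39. Syngr1, a vesicle membrane protein, fell by 3.35, the inhibitory lectin Clec4a2 by 3.33, Hacd4, a fatty acid elongation enzyme, by 3.29, and the aldehyde oxidase Aox1 by 3.29. The interferon-stimulated genes Ifi44l, Ifit2, Iigp1 and Cxcl10 fell by 3.74, 3.71, 3.44 and 3.41. Background correction with normexp gave smaller falls for the dim members of this set, such as 2.10 for Rnf144b and 1.18 for Nfia, still past the test. The bound was at least 11.2-fold lower for Gpnmb, a glycoprotein of lysosome-rich macrophages, and 9.55-fold for Cysltr1, a leukotriene receptor. For Klrk1 and Tlr8 it was 3.3-fold and 2.32-fold, but with normexp neither passed (adjusted p = 0.19 and 0.59).

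Among secreted signals, the interleukin-1 family had 6 called higher and 2 lower of 12 tested, with a median change of 0.69 against 0.06 over all features. Il1a (gene 16175), an alarm cytokine that acts without cleavage, read 1.58, 1.71, 2.77 and 1.47 without LPS and 5.88, 5.54, 5.45 and 5.79 with it, and rose by 3.78 (SE 0.28, adjusted p = 2.4e-07). Il1b (gene 16176), which needs caspase-1 cleavage, read 6.66, 6.95, 7.56 and 6.68 and then 8.93, 9.0, 8.86 and 9.32, a rise of 2.06 (SE 0.19, adjusted p = 2.4e-06). Il1rn, the receptor antagonist, rose by 3.19 and the signalling receptor Il1r1 by 2.85. So agonists, antagonist and receptor rose together, while the sister cytokine Il18 and its binding protein Il18bp fell by 1.53 and 0.99. Il33 rose by 1.72 (SE 0.40, adjusted p = 0.004).

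The inflammasome, the complex that activates caspase-1, moved in both directions, with 3 of 11 genes higher and 5 lower. The sensors Nlrp3 and Naip2 rose by 1.36 and 1.34. The shared adaptor Pycard fell by 1.31, the protease Casp1 by 0.89, and Gsdmd, whose product forms the pore of pyroptosis, by 0.69. Nlrp3 read -0.71, -0.93, -0.69 and -0.98 without and 0.50, 0.59, 0.45 and 0.59 with LPS, and Pycard 3.12, 3.27, 2.99 and 3.87 and 1.82, 2.09, 2.17 and 1.94. The median of the list was -0.37, and 0.06 with normexp.

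The 6 tested genes of the interleukin-10 family included Il10 (gene 16153), the main anti-inflammatory cytokine of macrophages, which read -2.28, -2.62, -1.38 and -2.0 without LPS and 0.95, 1.5, 0.42 and 2.33 with it. It rose by 3.37 (SE 0.37, adjusted p = 8.5e-06), and its LPS replicates 2 and 4 were the highest arrays. Of the interleukin-12 family 4 of 7 rose and 1 fell. Il23a, the private subunit of interleukin-23, exceeded background on none of the untreated arrays and rose at least 7.54-fold, and Il12b, the subunit it shares with interleukin-12, at least 2.91-fold, the latter with 3 of 4 LPS arrays above background. Ebi3, a subunit shared by other cytokines of this family, rose by 1.19 (SE 0.19, adjusted p = 2.3e-04).

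Cytokines that signal through gp130 and their receptor chains rose in 7 of 9 genes, with 1 lower. Il6 (gene 16193), the acute-phase cytokine, read 3.50, 3.17, 3.97 and 3.53 without and 6.69, 6.60, 6.62 and 7.31 with LPS and rose by 3.26 (SE 0.53, adjusted p = 2.9e-04). Osm, oncostatin M, rose by 1.81, its receptor chain Osmr by 4.76, and Clcf1 by 0.81. Ligands and receptors of this family thus rose in the same cultures. Il11ra1, the interleukin-11 receptor, fell by 1.15, and on removal of LPS replicates 2 and 4 its change was -0.59 (adjusted p = 0.092). Beside Csf2 and Csf3, the colony-stimulating factors included Il34, which rose by 1.23. Csf1 (gene 12977), the growth factor on which tissue macrophages depend, read 3.21, 2.71, 3.06 and 3.47 without LPS and 1.40, 2.40, 1.60 and 2.22 with it, a fall of 1.21 (SE 0.21, adjusted p = 5.3e-04). Its receptor Csf1r fell by 2.43, and by 1.53 without LPS replicates 2 and 4. The list held 3 rises and 2 falls in 9 genes.

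Among CXC chemokines, Cxcl1, Cxcl2, Cxcl3 and Cxcl5 rose and Cxcl10 fell. Cxcl1 (gene 14825) read 4.32, 4.33, 5.40 and 3.79 without and 7.37, 7.18, 7.13 and 7.68 with LPS, and rose by 2.88 (SE 0.24, adjusted p = 7.9e-07). Cxcl2 rose by 2.12, Cxcl3 by 2.47 and Cxcl5 by 5.01, all ligands of the neutrophil receptor CXCR2. Ppbp, a platelet chemokine that also binds CXCR2, fell by 1.67 (SE 0.43, adjusted p = 0.0068). Cxcl10 (gene 15945), a ligand of CXCR3 on T cells, read 5.80, 4.39, 4.67 and 5.42 untreated and -0.55, 3.27, 0.06 and 3.87 with LPS, and fell by 3.41 (SE 0.87, adjusted p = 0.0068). Its LPS replicates 2 and 4 stayed near the untreated arrays, and without them the fall was 5.31. Cxcl9, another CXCR3 ligand, fell by 1.70 (SE 0.42, adjusted p = 0.0054) and was well above background on 1 of 4 LPS arrays, and with normexp its change was -0.06 (adjusted p = 0.84). Over 13 CXC chemokines 4 rose and 4 fell.

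Of 12 CC chemokines 6 rose and 2 fell, with a median change of 0.99. Without replicate 4 it was 5 and 1. Ccl2 (gene 20296), the monocyte attractant, read 3.10, 3.47, 4.48 and 4.89 without and 6.55, 6.04, 6.14 and 7.0 with LPS and rose by 2.45 (SE 0.64, adjusted p = 0.0074). Ccl3 read 4.18, 3.84, 4.77 and 3.94 and then 7.60, 7.80, 7.20 and 8.85, a rise of 3.68 (SE 0.40, adjusted p = 7.8e-06). Ccl4 and Ccl7 rose by 3.24 and 3.58. In these chemokines LPS replicate 4 was the highest array. Ccl24, an eosinophil attractant of alternatively activated macrophages, fell by 1.49, and without replicate 4 its change was -1.07 (adjusted p = 0.052).

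Tnf itself moved less than these cytokines at this time point. Tnf (gene 21926) read 2.52, 1.93, 2.03 and 1.87 without LPS and 3.04, 2.63, 2.82 and 3.23 with it, a rise of 0.84 (SE 0.20, adjusted p = 0.004). Tnfsf9, the ligand of 4-1BB on T cells, rose by 1.42, although 1 LPS array lay within the untreated range. Tnfsf13, the B cell factor APRIL, fell by 1.59, and Tnfsf10, the death ligand TRAIL, by 2.58. The receptor Tnfrsf1b rose by 2.12 and Tnfrsf9, the 4-1BB receptor itself, by 2.51. Tnfrsf14, an entry mediator of herpes virus and regulator of T cells, fell by 0.87. Ligands gave 4 rises and 3 falls in 11 genes, and 2 and 3 without replicate 4. Receptors gave 5 and 1 in 14, and 3 and 3 when scaled on the array median.

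Of 19 growth and matrix signals 9 rose and 1 fell. Inhba (gene 16323), the activin A subunit, read 2.89, 2.21, 4.89 and 2.91 without and 6.61, 7.16, 6.72 and 7.30 with LPS and rose by 3.72 (SE 0.61, adjusted p = 3.1e-04). Hbegf, an EGF receptor ligand, rose by 3.67, Pdgfa, a growth factor of mesenchymal cells, by 1.89, and Edn1, the vasoconstrictor endothelin-1, by 1.87. With Inhba, Inhbb and the activin antagonist Fst, genes for the subunits of activin and for its inhibitor rose in the same arrays. Igf1, a growth factor of resident macrophages, was the called member that fell, by 1.60 (SE 0.22, adjusted p = 6.6e-05).

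Enzymes of lipid mediators were split by product. Ptgs2 (gene 19225), the inducible cyclooxygenase COX-2, read 2.0, 1.68, 3.39 and 1.40 without LPS and 5.56, 5.71, 5.15 and 6.32 with it, and rose by 3.57 (SE 0.38, adjusted p = 7.2e-06). Pla2g4a, which releases arachidonate from membranes, rose by 1.19 (SE 0.15, adjusted p = 2.6e-05), and Ptges, which makes prostaglandin E2, by 1.99 (SE 0.27, adjusted p = 6.1e-05). These are successive steps of prostaglandin E2 synthesis. Tbxas1 (gene 21391), the thromboxane synthase that uses the same COX product, read 3.01, 3.09, 2.10 and 3.02 and then 0.70, 0.14, 0.64 and -0.51, a fall of 2.56 (SE 0.26, adjusted p = 3.8e-06). The prostacyclin synthase Ptgis fell by 2.29, and by 1.5 without LPS replicates 2 and 4. The list gave 6 rises and 2 falls in 16 genes.

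In the leukotriene and lipoxygenase pathway 0 of 8 genes rose and 4 fell. Ltc4s (gene 17001), the leukotriene C4 synthase, read 1.12, 1.24, 0.95 and 0.41 without and -1.09, -1.08, -1.78 and -1.76 with LPS and fell by 2.36 (SE 0.29, adjusted p = 2.9e-05). Lta4h, which makes leukotriene B4, fell by 0.54, Alox15 by 3.40, and the receptor Cysltr1 by at least 9.55-fold. Enzyme and receptor of the cysteinyl leukotrienes were thus both lower with LPS.

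Nos2 (gene 18126), the inducible nitric oxide synthase, stayed dim in cells labelled fld. It read -4.35, -5.18, -4.55 and -4.50 without LPS and -3.11, -2.30, -3.16 and -3.31 with it, and rose by 1.67 (SE 0.37, adjusted p = 0.0029), with 3 of 4 untreated arrays above background. In control cells none of the 4 untreated arrays was well above background for Nos2, so its fitted change there, 4.18, is not a measured size. The fitted difference of the responses, -2.51, did not pass (adjusted p = 0.15, limma), and with normexp it was -0.41. The arginine transporter Slc7a2 rose by 2.81 (SE 0.36, adjusted p = 4.0e-05), the transporter Slc7a1 by 0.86, and Odc1, which makes polyamines from ornithine, by 1.31. Over 12 genes of arginine use 5 rose and 2 fell.

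Fpr1 (gene 14293), the receptor for bacterial formyl peptides, read 3.13, 3.54, 3.47 and 2.14 without and 5.94, 5.68, 6.17 and 4.37 with LPS and rose by 2.47 (SE 0.42, adjusted p = 3.9e-04). C3ar1, the receptor of complement fragment C3a, fell by 1.78, Cxcr4 by 1.66 and the decoy receptor Ccrl2 by 1.31. The list of chemoattractant receptors held 3 rises and 5 falls in 13 genes, and 3 and 3 without replicate 4. Its median was 0.14 and turned negative when arrays were scaled on their medians.

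Of the Toll-like receptors and their partners 2 rose and 5 fell in 13 genes. Cd14 (gene 12475), which presents LPS to TLR4, read 8.31, 8.41, 8.77 and 8.01 without and 9.39, 9.48, 9.26 and 9.44 with LPS, a rise of 1.01 (SE 0.14, adjusted p = 9.4e-05). The endosomal RNA receptor gene Tlr7 fell by 1.39, Tlr3 by 2.51, and Cd180, a TLR4 homologue without a signalling domain, by 1.26. Ticam2, the gene of the TRAM adaptor of the interferon branch of TLR4, fell from 4 of 4 arrays above background to none, at least 3.05-fold by the bound, but by 0.22 with adjusted p = 0.35 under normexp.

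Scavenger receptors and lectins fell in 7 of 20 genes and rose in 2. Clec4n (gene 56620), the fungal sensor dectin-2, read 5.15, 5.80, 4.88 and 4.82 without and 2.98, 1.62, 3.18 and 0.43 with LPS and fell by 3.11 (SE 0.52, adjusted p = 3.6e-04). Clec10a, a galactose lectin, fell by 1.87 and Cd36, a receptor for oxidised lipoproteins, by 1.07. Mrc1 (gene 17533), the mannose receptor, ran the other way: it read -3.12, -3.05, -1.98 and -2.75 and then 0.08, -0.12, -0.24 and -1.20, a rise of 2.35 (SE 0.33, adjusted p = 7.6e-05). Of 20 adhesion genes 5 rose and 4 fell, near the 21.9% higher and 18.2% lower of all features. The fibronectin and vitronectin receptor genes Itga5 and Itgb3 rose by 1.11 and 1.93, and Itga4 and Itga6 fell by 1.25 and 1.12.

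Within the signalling chain, genes of NF-kB and of its inhibitors rose together. Of 15 NF-kB and IkB genes 9 rose and 1 fell, with a median of 0.60. Nfkbia (gene 18035), the inhibitor IkB alpha, read 6.54, 6.36, 6.83 and 6.35 without and 8.03, 8.19, 8.07 and 8.38 with LPS, a rise of 1.65 (SE 0.13, adjusted p = 4.1e-07). The nuclear IkB proteins Nfkbiz and Nfkbid rose by 1.86 and 1.17, and the subunits Nfkb2 and Nfkb1 by 0.91 and 0.64. Feedback brakes rose in 9 of 17 genes and fell in 3. Zc3h12a (gene 230738), an RNase that destroys cytokine mRNA, read -0.68, -0.66, 0.05 and -0.62 and then 2.37, 2.26, 2.31 and 2.51, a rise of 2.84 (SE 0.16, adjusted p = 2.0e-08). Tnfaip3 (gene 21929), whose promoter is printed above, read 4.05, 3.80, 3.97 and 3.50 and then 6.20, 6.30, 6.15 and 6.40, a rise of 2.43 (SE 0.14, adjusted p = 2.7e-08). Its partners Tnip1 and Tnip3 rose by 2.11 and 2.72, and the interferon-stimulated brake Trafd1 fell by 1.13.

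The kinases and adaptors between TLR4 and NF-kB moved less, 9 higher and 5 lower of 27, and 2 higher and 6 lower when arrays were scaled on their medians. Map3k8, the kinase TPL2 upstream of ERK, rose by 1.74 (SE 0.16, adjusted p = 2.5e-06), and Mapk14, the kinase p38 alpha, fell by 1.26 (SE 0.23, adjusted p = 6.1e-04). The dual-specificity phosphatases Dusp16, Dusp1 and Dusp6, which switch MAP kinases off, rose by 1.85, 1.24 and 1.12, in a list with 5 of 10 higher and 1 lower. Socs3 (gene 12702), the inhibitor of gp130 signalling, read 5.52, 6.16, 6.72 and 6.19 without and 8.64, 8.78, 8.57 and 8.75 with LPS and rose by 2.54 (SE 0.24, adjusted p = 2.1e-06). Cish rose by 1.38, Jak2 by 1.54 and Stat5a by 1.06, all in the pathway of GM-CSF and related cytokines.

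Diacylglycerol, the product of lipin-1, activates protein kinase C, protein kinase D and RasGRP proteins. Of 21 genes of these proteins and of the diacylglycerol kinases that remove it, 5 rose and 9 fell with LPS in cells labelled fld, against 2 and 7 in control cells, where 30.0% of all features passed, 14.8% higher and 15.2% lower. Prkca (gene 18750) read -1.97, -2.54, -2.52 and -2.35 without and -0.74, -1.23, -1.14 and -1.04 with LPS and rose by 1.31 (SE 0.18, adjusted p = 8.6e-05). Prkcb and Prkd3 fell by 0.63 and 0.79, Rasgrp2 by 0.79, and the diacylglycerol kinase Dgkh rose by 0.86. So different isoforms of 1 kinase family went in opposite directions.

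AP-1 and related factors rose in 10 of 19 genes and fell in 3, and without replicate 4 in 7 and 3. Fosl1 (gene 14283), which encodes the AP-1 partner Fra-1, read -0.51, -1.04, -0.63 and -0.79 without and 1.43, 1.01, 1.02 and 1.21 with LPS and rose by 1.91 (SE 0.17, adjusted p = 1.1e-06). Maff rose by 1.69, Batf by 1.0 and Batf3 by 1.04, whereas Jun fell by 0.48. Of the EGR and KLF factors 3 rose and 5 fell in 15, Klf7 by 0.98 upward and Egr2 by 1.15 and Klf4 by 0.90 downward. Among clock genes, Bhlhe40 rose by 1.19 and Cry2 by 1.11, in a list with 3 higher and 2 lower of 15, near the shares of all features.

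Genes driven by interferon were lower with LPS than without, and the 4 LPS arrays did not agree on how far. Of 27 type I interferon-stimulated genes 13 fell and none rose, with a median change of -0.98. Of 12 interferon-inducible GTPases, which attack the vacuoles of intracellular microbes, 12 fell, with a median of -1.54. Of 11 genes of MHC class I loading and the immunoproteasome 8 fell and none rose. The median of each of these 3 lists stayed negative with quantile scaling, scaling on the array median and normexp background correction.

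Ifit2 (gene 15958), an antiviral RNA-binding protein, read 3.56, 2.16, 2.63 and 2.73 without LPS and -2.20, 0.44, -1.90 and -0.11 with it, and fell by 3.71 (SE 0.58, adjusted p = 2.0e-04). Ifit3 (gene 15959) read 6.06, 4.83, 5.61 and 5.61 and then 1.21, 4.0, 1.79 and 3.94, a fall of 2.79 (SE 0.59, adjusted p = 0.002). Gbp2 (gene 14469), a guanylate-binding protein, read 5.33, 4.63, 4.79 and 4.93 and then 1.79, 3.41, 2.08 and 2.99, a fall of 2.35 (SE 0.35, adjusted p = 1.5e-04). The groups did not overlap in these 3 genes, and LPS replicates 1 and 3 lay well below LPS replicates 2 and 4. Mx1, an antiviral GTPase, fell by 2.62, Iigp1 by 3.44, Gbp6 by 2.61 and Gbp3 by 1.38. The immunoproteasome subunits Psmb9, Psmb10 and Psmb8 fell by 1.24, 1.16 and 1.07, the loading chaperone Tapbp by 0.77, and the trimming peptidase Erap1 by 0.70. The calls of Tgtp1, Gbp4, Irgm1, Tap1 and Psme1 each ended when some single array was left out (highest adjusted p = 0.066, 0.11, 0.14, 0.10 and 0.068).

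LPS replicates 2 and 4 lay above LPS replicates 1 and 3 in 27 of 27 interferon-stimulated genes and 12 of 12 GTPases, against 31.4% of all features. Rsad2 (gene 58185), the antiviral enzyme viperin, read 6.94, 5.52, 6.88 and 6.14 without LPS and 2.73, 6.03, 2.98 and 6.30 with it. LPS replicates 1 and 3 were low and LPS replicates 2 and 4 were within the untreated range. Its change of -1.86 did not pass (adjusted p = 0.07), and without replicate 4 it was -2.53 (adjusted p = 0.037). Without LPS replicates 2 and 4, 27 of 27 interferon-stimulated genes fell, 12 of 12 GTPases and 8 of 11 class I genes, in a fit that called 29.2% of all features, 15.1% higher and 14.1% lower. Ifit3 then fell to a change of -4.03 and Mx1 to -3.75. The arrays left out were the higher ones in every gene of the interferon-stimulated and GTPase lists, so their removal could only lower those changes. The counts of this fit thus describe LPS replicates 1 and 3 and are not a separate result. LPS replicates 2 and 4 lay below LPS replicates 1 and 3 in 30 of 35 lysosomal genes, 7 of 10 macrophage markers and 26 of 27 proteasome genes. The share over all features was 27.5%. The part of the weaker signal of these arrays in the pattern was not tested. In control cells 4 of 27 interferon-stimulated genes, 3 of 12 GTPases and 1 of 11 class I genes fell, where 15.2% of all features were called lower. The control medians of these lists were -0.38, -0.49 and -0.18, against 0.03 over all features. Untreated means of Ifit2, Ifit3 and Gbp2 were 2.77, 5.53 and 4.92 in cells labelled fld, and 1.55, 4.57 and 3.64 in control cells. With LPS these means were -0.94, 2.73 and 2.57 in cells labelled fld, and -1.24, 2.44 and 2.64 in control cells.

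**Figure D3:**
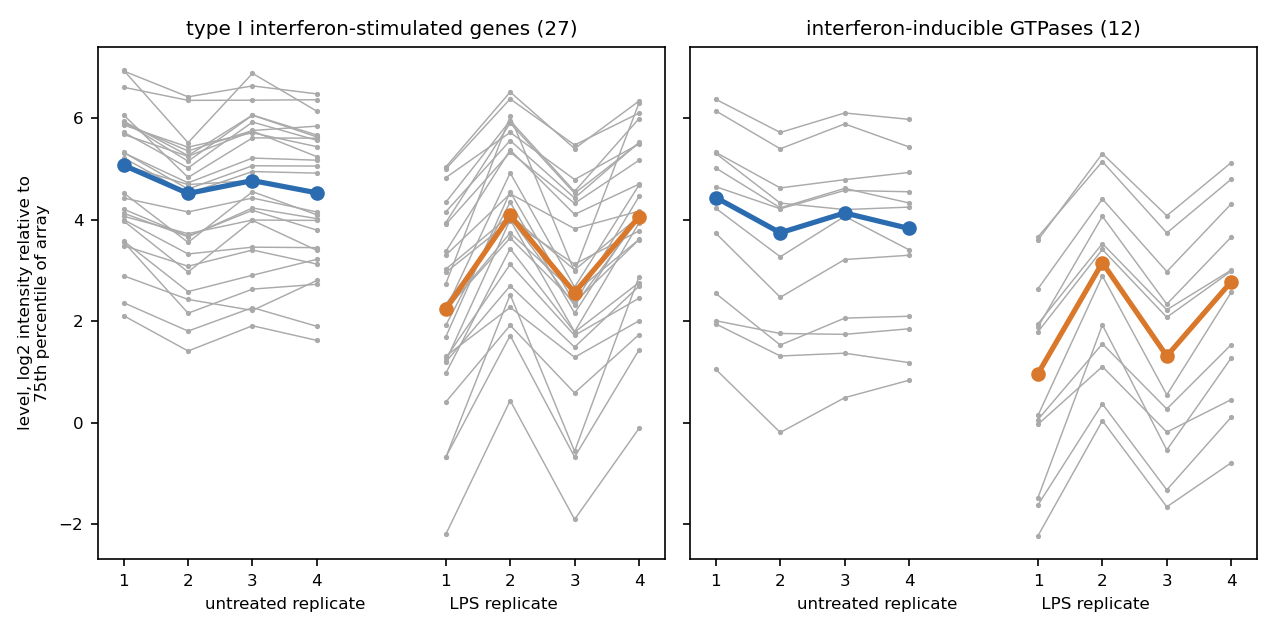
Level on each array (log2 intensity relative to the 75th percentile of the array) of the 27 interferon-stimulated genes (left) and 12 interferon-inducible GTPases (right) in macrophages labelled fld; each grey line is a gene over the 4 untreated and 4 LPS arrays, and the thick line is the median of the list. LPS arrays 1 and 3 are low, while LPS arrays 2 and 4 come close to the untreated arrays.

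The genes upstream of this programme gave a mixed picture. Ifnb1 (gene 15977), interferon beta, read -0.76, -2.38, -1.1 and -2.15 without and -3.17, -0.94, -3.64 and -1.98 with LPS, and its change of -0.84 did not pass (adjusted p = 0.33). Irf1 (gene 16362), a factor that sustains interferon gamma targets, read 6.40, 5.96, 5.89 and 5.77 and then 4.23, 4.88, 4.48 and 4.32, a fall of 1.53 (SE 0.18, adjusted p = 1.4e-05). Irf2 and Irf5 fell by 0.91 and 0.70, and the receptor chain Ifnar2 rose by 0.85, which was 0.14 with normexp (adjusted p = 0.50). For MHC class II and costimulation 3 rose and 1 fell of 13, against 21.9% higher and 18.2% lower of all features. Cd80 (gene 12519), a ligand that co-stimulates T cells, read -0.56, -0.36, 0.16 and -0.61 and then 2.11, 2.84, 1.46 and 3.26, a rise of 2.76 (SE 0.35, adjusted p = 3.6e-05). Cd274, the inhibitory ligand PD-L1, rose by 1.05, and Icosl, a ligand of the T cell receptor ICOS, fell by 1.43.

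In the pathway of lipin-1 itself, neither lipin gene tested passed with all arrays. Lpin1 changed by 0.39 (adjusted p = 0.33) and Lpin2 by -0.34 (adjusted p = 0.11). Without replicate 4 the change of Lpin1 was 0.42 and passed (adjusted p = 0.039). Over 18 genes of phosphatidate and its removal, 4 rose and 5 fell. Plpp3 (gene 67916), a membrane phosphatase of phosphatidate and lysophosphatidate, read 0.96, 1.13, 1.44 and 1.46 without and 2.45, 2.41, 3.36 and 2.91 with LPS and rose by 1.53 (SE 0.29, adjusted p = 8.7e-04). Cds2 and Cds1, which turn phosphatidate into CDP-diacylglycerol, fell by 1.05 and 1.45, and Pld4 by 1.33. Of 24 genes of triglyceride and phospholipid synthesis 6 rose and 4 fell, near the shares of all features, and 1 and 7 when scaled on the array median. Dgat2, which makes triglyceride from diacylglycerol, rose by 1.29 (SE 0.19, adjusted p = 1.2e-04). Chpt1, which makes phosphatidylcholine from diacylglycerol, fell by 1.42 (SE 0.22, adjusted p = 1.7e-04).

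Called rises in the list of lipid droplets, uptake and lipolysis were of the droplet proteins Hilpda, Plin5, Plin4 and Fitm2, and called falls of the lipases Lipa, Pnpla2, Lipe and Lpl and the droplet coat protein Plin3. Hilpda (gene 69573), an inhibitor of the lipase ATGL on lipid droplets, read 2.39, 2.75, 4.33 and 2.58 without and 5.82, 5.50, 5.78 and 5.72 with LPS, and rose by 2.69 (SE 0.32, adjusted p = 2.2e-05). Pnpla2, the ATGL gene itself, fell by 1.05 (SE 0.13, adjusted p = 2.9e-05). Lipa (gene 16889), the acid lipase of lysosomes, read 3.78, 3.67, 2.88 and 3.17 and then 1.15, 0.28, 1.38 and -0.25, a fall of 2.74 (SE 0.34, adjusted p = 2.7e-05). In each of these 3 genes the untreated and LPS arrays were apart. The list held 4 rises and 5 falls in 17 genes, and 2 and 3 without replicate 4. Lpl, the secreted lipoprotein lipase, had a called fall of 1.62, which 5 of the 8 fits with a single array left out did not call (untreated replicates 1, 2 and 4 and LPS replicates 2 and 4; changes from -2.34 to -1.36). The call of Lipe ended without untreated replicate 2 or LPS replicate 4 (highest adjusted p = 0.058). Without replicate 4 of both groups the calls of Plin4, Fitm2, Lipe and Lpl ended (adjusted p = 0.057, 0.054, 0.12 and 0.15).

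Genes of cholesterol handling fell in 8 of 18 cases and rose in 3. Abcg1 (gene 11307), an exporter of cholesterol to HDL, read 5.12, 4.97, 5.04 and 4.75 without and 3.22, 2.65, 3.68 and 1.45 with LPS and fell by 2.22 (SE 0.34, adjusted p = 1.7e-04). Nceh1, a cholesteryl ester hydrolase, fell by 2.13, Soat1, which makes those esters, by 1.13, and the lysosomal transporters Npc1 and Npc2 by 0.99 and 0.89. Ch25h (gene 12642), which makes a signalling oxysterol, read 2.32, 1.54, 1.76 and 2.78 and then 4.91, 4.96, 5.25 and 6.32, a rise of 3.26 (SE 0.61, adjusted p = 8.6e-04). Abca1, the other main exporter, rose by 1.1 (SE 0.18, adjusted p = 2.8e-04). The exporter pair thus split. Sterol and fatty acid synthesis had 2 rises and 5 falls in 32 genes, with Elovl5 down by 1.21.

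Fatty acid oxidation fell in 15 of 28 genes and rose in 2, with a median of -0.34. Cpt1a (gene 12894), the gate for fatty acids into mitochondria, read 1.83, 1.76, 1.09 and 1.58 without and -0.33, -0.28, -0.19 and -0.36 with LPS and fell by 1.85 (SE 0.15, adjusted p = 6.1e-07). Echs1, an enzyme of beta-oxidation, fell by 1.27, Acaa2 by 0.98 and Acadm by 0.65. The nuclear receptor gene Ppard rose by 0.75 (SE 0.10, adjusted p = 7.7e-05). Without replicate 4 12 of the 28 fell.

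Glycolysis was mixed, 6 higher and 7 lower of 21. Pfkfb3 (gene 170768), which makes the activator of phosphofructokinase, read 2.96, 3.28, 3.61 and 3.35 without and 6.49, 6.57, 6.29 and 6.35 with LPS and rose by 3.12 (SE 0.16, adjusted p = 2.0e-08). Hif1a, the hypoxia factor, rose by 1.55, hexokinase 2 (Hk2) by 1.14 and the glucose transporter Slc2a1 by 1.06. Pfkl, the liver-type phosphofructokinase, fell by 0.74 and Aldoa by 0.57. Of 32 genes of oxidative phosphorylation 2 rose and 3 fell, and 11 fell and none rose when scaled on the array median. Citrate cycle genes fell in 7 of 17 and rose in 0, and without LPS replicates 2 and 4 4 fell and 1 rose. Idh1 and Idh2, the NADP-linked isocitrate dehydrogenases, fell by 1.54 and 1.55, and Mdh1 by 0.75.

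The lysosome and autophagy list held the most falls of any list, 22 of 35 with 2 higher and a median of -0.54. Gusb (gene 110006), beta-glucuronidase, read 3.42, 3.92, 3.55 and 3.57 without and 2.70, 2.27, 2.70 and 1.51 with LPS and fell by 1.32 (SE 0.21, adjusted p = 2.6e-04). Ctsb (gene 13030), the protease cathepsin B, read 7.75, 7.76, 7.83 and 7.57 and then 6.93, 6.80, 7.08 and 6.44, a fall of 0.92 (SE 0.14, adjusted p = 2.3e-04). Both were lowest on LPS replicate 4. Hexa, Ctsd, Ctsa and Psap fell by 1.32, 1.31, 1.22 and 1.09. Without LPS replicates 2 and 4 the first 3 fell by 0.64, 0.65 and 0.57, under 1 log2 unit but still called, and 12 of the 35 were lower. The arrays left out were the lower ones in 30 of the 35, so their removal could only make the falls of those genes smaller. Without replicate 4 of both groups 16 were lower. The letters of the E-box bound by TFEB-type factors, CACGTG, stood in 10 of 26 promoters of this list, 38.5%, against 9.65% of all tested genes with a promoter. That share is a property of the listed promoters and does not depend on the response to LPS. Mitf, a gene of that factor family, fell by 1.09, and a part of it in the falls of this list was not tested.

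Proteasome genes rose in 20 of 27 cases with none lower, by a median of 0.41, and 3 of 27 rose when arrays were scaled on their medians. LPS replicates 2 and 4 lay below LPS replicates 1 and 3 in 26 of the 27, against 27.5% of all features. Without LPS replicates 2 and 4, 21 rose, in a fit that called 15.1% of all features higher. The arrays left out were the lower ones in those 26 genes, so their removal could only raise the changes of those genes. Psma6 and Psmc6, of the core and the cap, rose by 0.89 and 0.74. These are the standard subunits, and the immunoproteasome subunits Psmb8, Psmb9 and Psmb10 fell in the same arrays. Stress responses of the endoplasmic reticulum rose in 9 of 25 genes with none lower, and 9 rose and 1 fell when scaled on the array median. Chac1 (gene 69065), a glutathione-degrading enzyme of the ATF4 pathway, read 4.51, 4.28, 4.09 and 3.71 without and 5.50, 5.76, 5.27 and 5.95 with LPS, a rise of 1.47 (SE 0.20, adjusted p = 6.5e-05). Dnajb9 rose by 1.16, Sesn2 by 1.13 and Herpud1 by 1.04. Xbp1, a factor of that response, rose by 0.77, and the chaperone gene Hspa5 by 0.79.

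Metallothionein genes rose, and the list they share with NRF2 genes moved in both directions. Mt2 (gene 17750), a metallothionein, read 4.08, 3.73, 4.02 and 3.52 without and 6.92, 7.36, 7.0 and 6.78 with LPS and rose by 3.18 (SE 0.20, adjusted p = 7.3e-08). Mt1 rose by 2.07 and the zinc importer Slc39a14 by 2.94, while the zinc exporter Slc30a1 fell by 1.37 (SE 0.27, adjusted p = 0.0012). Importer and exporter of zinc thus moved in opposite directions. Gstm1, a glutathione transferase, fell by 1.99 and Keap1 by 0.93. The list held 6 rises and 7 falls in 21 genes, and 6 and 3 without LPS replicates 2 and 4.

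The cell cycle list hardly moved, with 1 of 28 genes higher and 0 lower. The called gene, Cdkn2a, was dim: it rose by 1.31 with 1 of 4 untreated and 3 of 4 LPS arrays above background. Genes of cell death fell more than they rose, 9 against 4 of 21. Pmaip1 (gene 58801), the death inducer Noxa, read 3.75, 3.59, 3.52 and 3.20 without and 2.05, 2.34, 2.07 and 2.37 with LPS and fell by 1.31 (SE 0.15, adjusted p = 1.6e-05). The necroptosis genes Ripk3 and Mlkl fell by 1.15 and 0.91. Cflar, which blocks caspase-8, rose by 0.84, and the caspase inhibitor Xiap by 0.97.

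Of 17 coagulation and fibrinolysis genes 7 rose and 3 fell, with a median of 0.24 that was below 0 when arrays were scaled on their medians. F3 (gene 14066), tissue factor, which starts coagulation, read -0.23, -0.24, 0.19 and 0.23 without and 4.45, 3.35, 4.12 and 4.53 with LPS, a rise of 4.12 (SE 0.33, adjusted p = 5.9e-07). Plaur, the urokinase receptor, rose by 1.64. Procr, the receptor of the anticoagulant protein C, rose by 1.86. F7, the partner of tissue factor, fell by 1.67 (SE 0.27, adjusted p = 2.4e-04). In the same list F10 and F5 had called falls of 1.18 and 0.97, which without LPS replicate 4 were 0.66 and 0.61. Complement genes fell in 6 of 15 cases with none higher, but in 3 without replicate 4 and in 2 without LPS replicates 2 and 4. C2, a protease of the classical pathway, fell by 1.45 (SE 0.32, adjusted p = 0.0026). The called fall of C1qa, 1.57, was 0.88 without LPS replicate 4, and C1qa read 4.31, 3.37, 4.35 and 1.27 on the LPS arrays. Without untreated replicate 2 neither C1qa, F10 nor F5 was called (adjusted p = 0.052, 0.057 and 0.062).

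Mmp13 (gene 17386), a collagenase, read 3.39, 2.61, 4.02 and 2.08 without and 6.96, 7.44, 6.74 and 7.50 with LPS and rose by 4.13 (SE 0.38, adjusted p = 2.0e-06). Mmp14 rose by 1.35, and the inhibitor Timp1 by 2.48 (SE 0.43, adjusted p = 5.0e-04). Timp2, a related inhibitor, fell by 2.5 (SE 0.31, adjusted p = 2.6e-05). Of 19 genes 4 rose and 3 fell, shares near those of all features. Hyaluronan genes rose in 4 of 6 cases with none lower: beside Has1, Tnfaip6, which cross-links hyaluronan, by 2.04, the receptor Cd44 by 0.68, and Cemip2, a hyaluronidase, by 1.36. Of 17 markers of alternative activation 4 rose and 4 fell, again near the shares of all features, and 5 and 2 without LPS replicates 2 and 4. Il4ra, the interleukin-4 receptor, rose by 2.13 (SE 0.24, adjusted p = 1.1e-05), as did Mrc1, and Clec10a and Klf4 fell.

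The markers of macrophages had a high summed level in every array, and each of the 10 was well above background on some array of each group. Their summed level, in multiples of the 75th percentile of the array, was 1295 to 1465 untreated and 1553 to 1806 with LPS. Their mean log2 level was 0.74 lower with LPS. With Cd14 higher by 1.01, the other called macrophage markers were lower. Adgre1 (gene 13733), a surface receptor that marks mouse macrophages, read 6.72, 7.18, 6.62 and 6.92 without and 5.96, 5.29, 6.14 and 4.07 with LPS and fell by 1.49 (SE 0.34, adjusted p = 0.003), and without LPS replicates 2 and 4 its change was -0.81. Markers of large peritoneal macrophages fell in 4 of 9, with Timd4, a receptor for dying cells, down by 2.34 (SE 0.51, adjusted p = 0.0027). Gata6 (gene 14465), the factor that defines these cells, read 0.93, 1.36, 0.85 and 0.92 and then 1.68, 0.51, 1.29 and 0.42, with a change of -0.04 (adjusted p = 0.92). In bulk RNA fewer cells of a type and less RNA per cell cannot be told apart.

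Markers of other peritoneal cells were present at lower levels. B cell markers summed to 97.1 to 137 untreated and 63.9 to 90.2 with LPS, and T and NK cell markers to 4.76 to 8.17 and 5.08 to 9.96, with Ncr1 not above background. Mast cell markers summed to 43.3 to 142 and 122 to 174. In that list 1 of 9 genes rose, Hdc, the histamine-forming enzyme, by 2.95. The proteases Cma1, Cpa3, Mcpt4 and Tpsb2 did not pass, with changes of 0.55, 0.41, 0.42 and 0.56. Neutrophil markers summed to 1.42 to 1.73 without LPS and 19.3 to 26.9 with it. S100a8 (gene 20201), a calcium-binding protein of neutrophils and of activated macrophages, carried that rise: it read -0.21, -0.13, 0.33 and -0.23 and then 4.53, 4.33, 4.70 and 4.18, a rise of 4.49 (SE 0.24, adjusted p = 2.0e-08). Among the 9 neutrophil markers with a probe, Elane and Cxcr2 were well above background on none of the 8 arrays, and Ngp and Retnlg on no LPS array. The others, Ltf among them, were well above it on at least 1 LPS array, and 2 of the 4 tested were called higher. Erythroid markers ranged from 5.51 to 188 untreated and from 1.05 to 409 with LPS, the highest on LPS replicate 4, and none of 3 passed. The part of these cells in the changes above was not tested.

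Leaving out replicate 4 removed more calls than it moved. Leaving out untreated replicate 2 alone left 5390 calls, and leaving out both arrays of replicate 4 left 5437. A loss of this size was thus not particular to replicate 4. Of 3831 features higher with LPS 2667 stayed called (69.6%) and 1164 did not, and of 3178 lower ones 2429 stayed (76.4%) and 749 did not, while 199 and 142 were gained and none was called the opposite way. The higher calls that were lost were dimmer untreated, with a median level of -2.64 against -1.40 for those kept, and smaller, with a median change of 0.61 against 0.83. They were also less often called in control cells, 23.5% against 61.0%. For lower calls these shares were 39.5% and 73.6%.

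The largest calls lost were those of Stc1, Vegfc, Areg, Pcdh18, Cxcl13, Dgkk, Dkk2 and Vsig4. Areg (gene 11839), an EGF receptor ligand, read 0.18, -0.89, 0.19 and -0.92 without LPS and 0.93, 1.84, 1.08 and 3.38 with it, and its rise of 2.17 became 1.46 (adjusted p = 0.092). Cxcl13, a B cell chemokine made by peritoneal macrophages, read 2.37, 4.05, 2.83 and 4.25 and 1.57, 1.11, 3.03 and -0.67, and its change went from -2.12 to -1.18 (adjusted p = 0.14). In both the LPS array of replicate 4 was the most extreme. Stc1, Vegfc, Pcdh18, Dgkk, Dkk2 and Vsig4 went from 2.83, 2.24, 1.83, -2.66, -1.83 and -1.69 to 2.59, 1.45, 1.01, -2.34, -1.85 and -1.19. The calls of Stc1, Pcdh18, Dkk2 and Cxcl13 also ended in fits without some other single array (highest adjusted p = 0.10, 0.09, 0.083 and 0.058). Among the largest calls gained were the interferon-stimulated genes Rsad2 and Isg20, at -2.53 and -1.31. Of the genes described above, without replicate 4 the changes were 7.67 for Csf2, 7.70 for Csf3, 3.09 for Il6, 1.87 for Il1b, 3.12 for Ptgs2 and -1.83 for Cpt1a, all called. Larger shifts were those of Gja1, from 6.21 to 5.63, Alox15, from -3.40 to -2.70, and Clec4a2, from -3.33 to -2.74. Over the 52 lists that are not of cell type markers, the count of calls in 1 direction moved by at most 3 genes without replicate 4, except in the lysosome and autophagy list.

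**Figure D4:**
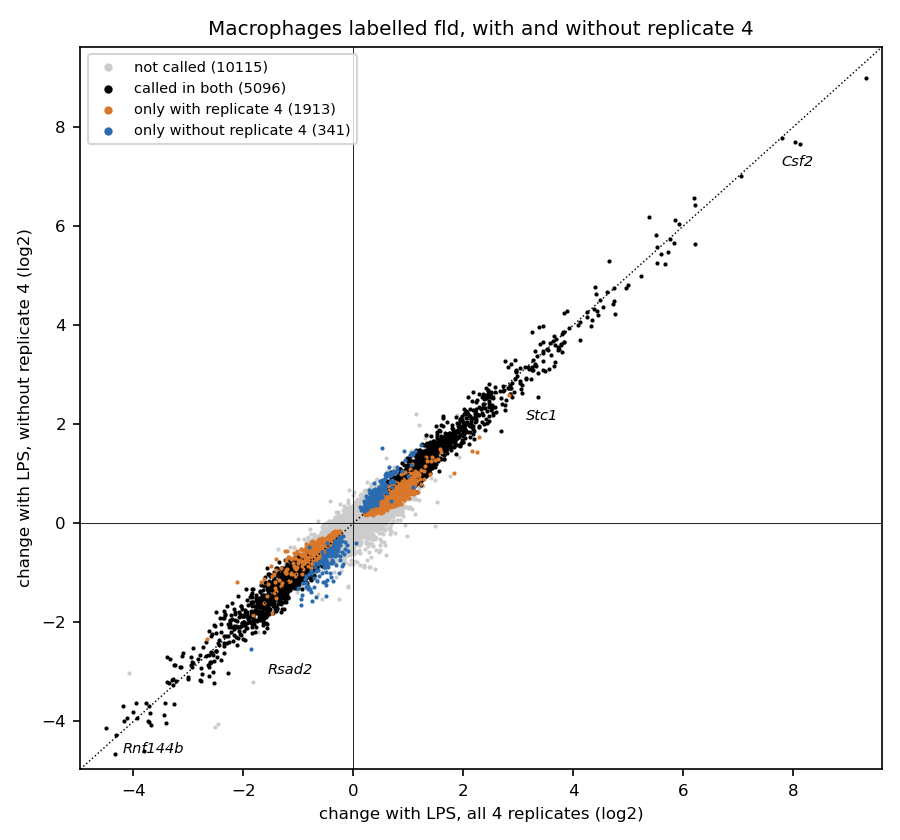
Change with LPS (log2) in macrophages labelled fld with all 4 replicates (horizontal axis) and without replicate 4 of both groups (vertical axis) for 17465 features; grey points are uncalled in both fits, black points called in both, orange points called only with replicate 4 and blue points only without it. The 1913 orange points lie mostly at small changes, with exceptions such as Stc1, and the 341 blue points include Rsad2.

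In control macrophages fewer features were called: 5231 passed, 2580 higher and 2651 lower. Of the features higher in cells labelled fld 1899 were also called higher in control cells, 49.6% of the first set and 73.6% of the second, and 2084 were lower in both, 65.6% and 78.6%. Only 5 features were called in opposite directions. A call in 1 genotype alone does not show a difference, and when the difference of the responses was tested by limma, 0 of 17465 features passed after adjustment, with 1649 (9.44%) at an unadjusted p under 0.05. Tested on values scaled by quantiles 14 passed, and on those scaled by the array median 7.

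The members of the lists with the smallest unadjusted p for that difference were Nos2, described above, and Csf1, Cd209a, Nfkb1, Ppard, Erap1 and Slc2a6, none of which passed. Csf1 changed by -1.21 in cells labelled fld and 0.01 in control cells (adjusted p of the difference = 0.20). Nfkb1 rose by 0.64 and 1.19, and Ppard changed by 0.75 and 0.22. Slc2a6, a lysosomal hexose transporter, changed by -0.80 and 0.71, the first with a call that ended in 4 of 8 fits with an array left out (untreated replicates 1 and 2, LPS replicates 3 and 4), and Cd209a, a lectin, by 1.24 and -0.30. Il6 rose by 3.26 against 5.06, Tnf by 0.84 against 1.54, Il10 by 3.37 against 2.07, and Prok2 by 7.06 against 5.26, with unadjusted p of the difference between 0.024 and 0.041. Several cytokines had close values: Csf3 rose by 8.03 and 7.93, Cxcl1 by 2.88 and 3.10, Il1rn by 3.19 and 3.25, and Hbegf by 3.67 and 3.64. A p that misses the threshold does not show that the genotypes respond alike.

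**Figure D5:**
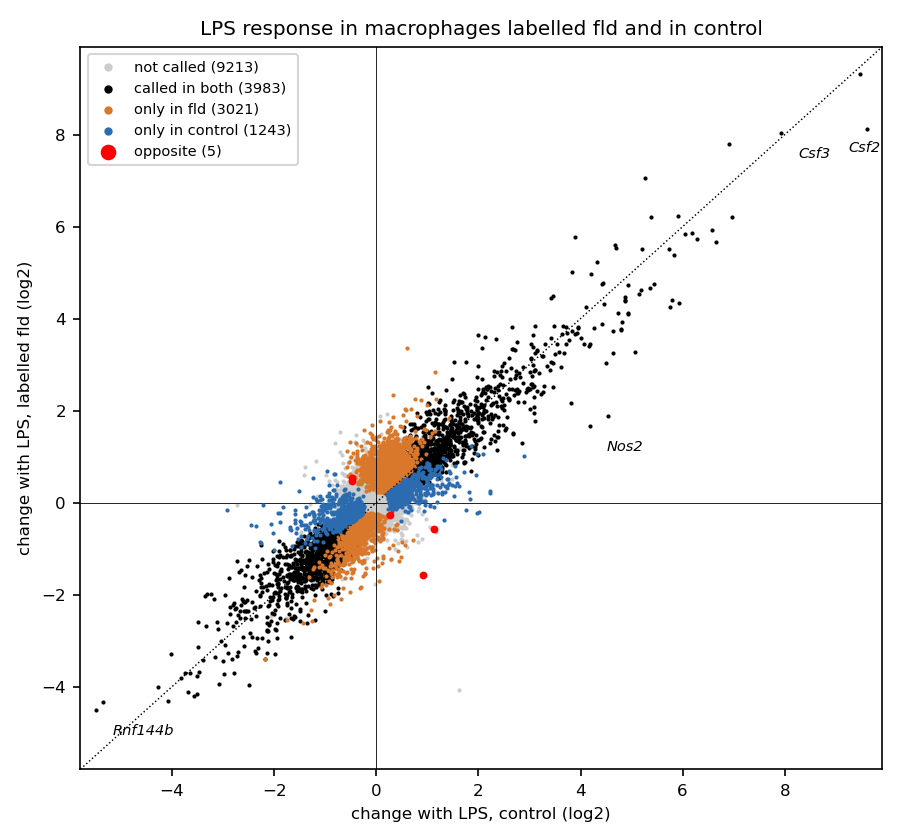
Change with LPS (log2) in macrophages labelled fld (vertical axis) against control macrophages (horizontal axis) for 17465 features, each the mean of 4 arrays minus the mean of 4; grey points are uncalled, black points called in both genotypes in the same direction, orange points in fld only, blue points in control only, and red points are the 5 called in opposite directions. Csf2 and Csf3 lie at the upper right and Rnf144b at the lower left, while Nos2, not well above background on any control array without LPS, lies below the line of equal change.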

How the data were processed

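Intensity values of 16 arrays, 4 in each of 4 groups, were analysed. Per the file headers, the authors scanned 1-colour Agilent arrays of design 014868 and made the processed intensity with Feature Extraction 9.5.1.1, which subtracts background within an array and does not scale between arrays. The level used was the log2 of the deposited processed intensity minus the 75th percentile of its array over spots that are not controls. Outlier spots (0.208% of values) were left out, and spots of a probe were averaged. A probe was kept where some group had all 4 of its arrays well above background, and the brightest probe stood for a gene. Gene names came from the array files, updated through RefSeq where an accession, symbol or synonym matched (22951, 6659 and 3109 of 41174 probes), and 8455 probes kept the name in the file.

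Group means over all 16 arrays were fitted with limma 3.58.1 in R 4.3.3 (lmFit and eBayes, two-sided), with Benjamini-Hochberg adjustment over 17465 features and calls at an adjusted p under 0.05. The procedure was tested on simulated data. Where no array of a group was well above background, a probe has only a bound, its fold against the higher of its own signal and the lowest signal well above background on each array. Alternatives were other scaling, background correction (normexp, offset 50), filters, probe summaries, samples in the fit, limma settings, the replicate number as a block, and arrays left out. Precision is limited by 4 arrays a group.

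The 62 gene lists (1021 genes), 10 of them of cell type markers, and all tests were chosen with earlier results of these data known, so no list was tested as a set. Named genes were the 15 highest and 15 lowest calls with a symbol, signal on at least 2 arrays of each fld group and no overlap of arrays, the 6 highest and 4 lowest bounds, up to 4 called members of a list in its main direction and 2 in the other, any member of a list of at most 12, the 8 largest calls lost and 8 gained without replicate 4, the lipin genes, 9 inflammatory genes and the cell type markers. Another 26 genes, among them Cxcl9, Ppbp, Ctsb, Hspa5, Nfkb1, Plin4, Fitm2 and Lipe, were named after their values were seen, as were the printed promoters and the fit without LPS replicates 2 and 4.

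Some members of the lists are not reported here by name.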

Additional observations from a re-analysis of the deposited data

Results flagged for a closer look

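Among the named genes, 27 of 552 sets of 4 arrays (4.89%) had 1 array far from the other 3, by a gap past Dixon's critical value. Chance alone marks about 1 set in 20, so the number of such sets is near what chance gives, and the values below are given as a description. Of these, 9 were untreated replicate 3, 8 LPS replicate 4, 4 untreated replicate 4, 3 untreated replicate 2, 2 LPS replicate 1 and 1 LPS replicate 3. All values are log2 levels relative to the 75th percentile of the array.

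LPS replicate 4 was the high array for Il6 at 7.31 and for Tnfrsf9 at 2.17, and the nearest other arrays read 6.69 and 1.81. It was the low array for Rnf144b at -5.77, Aox1 at -3.99, Casp1 at 3.17, Igf1 at 1.01, Ripk3 at 2.20 and Mmp14 at 6.36. Mmp14, a membrane-bound metalloproteinase, was also lowest on untreated replicate 4, at 5.09 against 5.66 on the next array. Untreated replicate 4 was the low array for Ifnar2 at 2.97, Sesn2 at 4.23 and Tnip1 at 3.66 too.

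Untreated replicate 3 was the high array for the activin antagonist Fst at -0.35, the interleukin-1 receptor Il1r1 at -1.57, the RNase gene Zc3h12a at 0.051 and the peptidase gene Erap1 at 2.05. Of these genes Fst, Il1r1 and Zc3h12a rose with LPS. It was the low array for Tbxas1 at 2.10, Lpl at 2.22, Lipe at -0.87, P2ry14 at -0.88 and Dgkk at -5.75, all of which fell with LPS.

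Untreated replicate 2 was the high array for Ctsd at 7.23, Gata6 at 1.36 and Idh1 at -0.79. LPS replicate 1 was the low array for Irf5 at 2.79 and Prkd3 at 1.61, and LPS replicate 3 for Osmr at 3.39.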

How the results depend on the processing

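Over the alternatives tried, the total of calls of the LPS response in cells labelled fld stayed within 1.5 times of 7009, at 5645 with the fld arrays alone, 5437 without replicate 4 and 5094 without LPS replicates 2 and 4, an alternative chosen after seeing the data. Leaving out 1 array at a time gave 2805 to 4064 higher and 2585 to 3284 lower. The count of higher calls was 1987 when arrays were scaled on their medians, which moved the median change of all features to -0.18. The difference between genotypes had 0 calls as reported, 14 with quantile scaling, 7 with array median scaling, 0 to 1 when 1 array was left out (1 without LPS replicate 1), and 1 with the replicate number as a block. Deviations from the group means correlated between same-numbered fld arrays at r = -0.08, -0.09, -0.10 and 0.20. Between unlike-numbered untreated and LPS arrays r ran from -0.42 to 0.38. These values do not settle whether a number stands for 1 mouse, and the Lpin1 probes carried signal on both fld arrays of number 4. The numbers were not taken as pairs, and the replicate block gave 4037 higher and 3087 lower calls. Of 266 called genes that the text names, 250 kept their call with each fld array left out in turn, and none changed direction under the alternatives run. Against the summed level of markers, their mean log2 level changed by -0.74 for macrophages, a reversal, as Cd14 rose and the other called markers fell, by -0.20 instead of -0.48 for B cells, and by 1.05 instead of 3.83 for neutrophils. The causes of the other shifts were not tested. Probes near background limit the size of the largest changes, and slide cannot be told apart from group.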

Other observations

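Markers of small peritoneal macrophages and dendritic cells had 3 called higher and 1 lower of 8 tested in cells labelled fld, and 2 higher and 0 lower without replicate 4 of both groups. Their summed level, in multiples of the 75th percentile of the array, was 8.08 to 10.1 untreated and 9.61 to 13.9 with LPS, the highest on LPS replicate 4. Cd209a, a lectin of monocyte-derived cells, read -4.44, -3.62, -3.10 and -4.22 without LPS and -2.12, -2.60, -2.69 and -3.03 with it, and changed by 1.24 (SE 0.28, adjusted p = 0.0034). Ccr7, the chemokine receptor that guides dendritic cells to lymph nodes, rose by 0.62 (SE 0.15, adjusted p = 0.0058). Ccr2, the receptor for Ccl2 on monocytes, had a called change of -0.96 that did not pass in 6 of the 8 fits with a single array left out (all but those without untreated replicate 3 or LPS replicate 3), without replicate 4 of both groups (change -0.77, adjusted p = 0.15), or with normexp (change -0.24, adjusted p = 0.36).

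None of the 3 eosinophil markers tested passed, and that list summed to 0.722 to 1.3 untreated and 0.69 to 1.09 with LPS. Of 7 tested markers of mesothelial cells and fibroblasts 1 rose: Col1a1, a chain of type I collagen, read -3.91, -4.68, -4.18 and -3.06 without LPS and -2.11, -1.5, -2.53 and -0.80 with it, a change of 2.22 (SE 0.51, adjusted p = 0.0035). That list summed to 2.81 to 4.86 untreated and 2.54 to 4.73 with LPS, and Wt1 and Lrrn4 were above background in neither group.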
